A study of Mus musculus with 6 samples.

Results

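The 10 genes described here encode the pathway by which a cell shows peptides on MHC class I: the heavy chains H2-K1, H2-D1 and H2-T23, the light chain B2m, the peptide transporter subunits Tap1 and Tap2, the loading factor Tapbp, the immunoproteasome subunits Psmb8 and Psmb9, and the transactivator Nlrc5. They were taken by symbol, as a pathway, from a count matrix of 24421 genes. All 10 were found, and all 10 were among the 11658 genes that were tested. RNA-seq was performed on CD4+YFP+ regulatory T (Treg) cells from the spleens of 8- to 11-week-old untreated female C57BL/6 mice. The WT group was Foxp3Cre and the KO group was Foxp3Cre miR-142fl/fl, with 3 mice and 3 libraries in each, 1 library per mouse. Both groups carried the Foxp3-driven Cre allele with its YFP reporter. The KO group alone carried the floxed miR-142 alleles, so that the microRNA was removed from cells that express Foxp3. KO Treg cells were taken directly from the mutant mice, and an effect of the deletion inside the cell and an effect of the animal's state on the cell cannot be told apart in these libraries.

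Class I molecules display fragments of the cell's own proteins to CD8 T cells and also serve as ligands for receptors on natural killer cells. The proteasome cuts proteins into peptides, the TAP transporter pumps them into the endoplasmic reticulum, and tapasin, the product of Tapbp, holds TAP and an empty heavy chain with B2m together until a peptide is bound. Interferons raise most genes of this pathway through interferon regulatory factors and other transcription factors, and Nlrc5 drives class I promoters together with the RFX, CREB/ATF and NF-Y proteins that sit on their conserved X and Y boxes.

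The libraries held between 13883069 and 24042994 counts. Levels are given as counts scaled to library size with TMM factors (CPM), and differences as the log2 fold change of KO over WT with its standard error (SE) and the false discovery rate (FDR) over all genes tested in edgeR's quasi-likelihood F (QLF) test. A gene was called at an FDR under 0.05. A count at the floor of 3 was worth between 0.125 and 0.216 CPM, far below the lowest member in any library, 110.3 CPM of Psmb9 in WT replicate 3. The targeted gene Mir142 had 0 counts in all 6 libraries. Mir142b, annotated on the opposite strand across the whole of Mir142, had 9.05, 4.14 and 5.81 CPM in WT replicates 1, 2 and 3 and 0.389, 0.379 and 0.342 CPM in the KO libraries, which is a log2 change of -4.07 (SE 0.39, FDR = 0.00132). The counts were made without regard to strand, so reads from the 2 cannot be told apart. The 0 counts of Mir142 cannot be read as absence. The T cell and Treg genes Cd3e, Cd4, Foxp3, Il2ra, Ikzf2 and Ctla4 were expressed in all 6 libraries. Their levels were not all alike between the groups. Il2ra was called higher in KO (1.77, SE 0.14, FDR = 0.00088). Foxp3 lay higher and Cd3e and Cd4 lower in KO without overlap, and none of these was called. Ikzf2 and Ctla4 overlapped. KO replicate 1 stood apart by transcripts of other cell types, and its values are set out after the members.

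The mature products of miR-142 are shown first because the groups differ in them. The sequences are those of RefSeq on GRCm38.p6, 5′ to 3′, and capitals mark the seed, bases 2 to 8. The 3p strand lies at chr11:87756903-87756925 and the 5p strand at chr11:87756867-87756887.
mmu-miR-142a-3p: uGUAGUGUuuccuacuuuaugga
mmu-miR-142a-5p: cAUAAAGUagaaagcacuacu
The sites searched for were ACACTAC for the 3p seed, AACACTA for its register shifted by 1 base, and ACTTTAT for the 5p seed. Shorter matches to a seed, which can also pair, were not searched. Among the 21153 genes with an annotated 3′ UTR in GENCODE, 6.49%, 9.37% and 14.7% hold these sites in the longest one. The longest 3′ UTR of each of the 10 class I genes, between 188 bases in Psmb8 and 1197 bases in Nlrc5, held neither 3p site. The 1 match among them was a 5p site in Psmb9, at chr17:34182052-34182058 on the minus strand in a 3′ UTR of 687 bases, with capitals here marking the match.
Psmb9 5p site: tgtaaaaataaACTTTATtattaaaaaaa
Psmb9 was 1 of the 4 members that were not called, as described below. These matches are a description of the letters in the UTRs and not a measurement of binding.

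Promoter windows from 250 bases before to 50 bases after the RefSeq start site were at hand for 8 of the 10 genes, all except Tap2 and Nlrc5. They are shown for the letters that several of the members share. Motifs were searched on both strands as exact letters: X2 core TGACG, Y box ATTGG, a κB palindrome of GGGGATT followed directly by CCCC, the interferon-stimulated response element (ISRE) of GAAA, any 2 bases and GAAA, its shorter IRF core AANNGAAA and the gamma-activated site (GAS) TTCNNNGAA. An X2 core followed after exactly 20 bases by a Y box was present in H2-K1, H2-D1 and B2m, and this spacing was chosen after their sequences had been read. It was found in 31 of 32851 windows (0.0944%), those of the members included. Capitals mark the X2 core and the Y box.
H2-K1, chr17:34000359-34000388, minus strand: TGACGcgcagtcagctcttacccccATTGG
H2-D1, chr17:35262993-35263022, plus strand: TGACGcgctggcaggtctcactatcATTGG
B2m, chr2:122147609-122147638, plus strand: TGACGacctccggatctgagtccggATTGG
The first base of the match lay 41 bases before the start site in H2-K1, 101 in H2-D1 and 78 in B2m. The κB palindrome was present in both classical heavy chain genes and in 0.0304% of all windows, with capitals marking it.
H2-K1, chr17:34000439-34000467, minus strand: cccagggctGGGGATTCCCCatctccaca
H2-D1, chr17:35262914-35262942, plus strand: cccagggctGGGGATTCCCCatctcctca
An ISRE was present in B2m and, on the reverse strand, in H2-T23, and in 3.44% of all windows. A GAS was present in Psmb8 and in 8.3% of all windows. Capitals mark these matches.
B2m ISRE, chr2:122147538-122147567, plus strand: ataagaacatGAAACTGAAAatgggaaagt
H2-T23 ISRE, chr17:36032806-36032835, minus strand: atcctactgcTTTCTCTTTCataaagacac
Psmb8 GAS, chr17:34198088-34198116, plus strand: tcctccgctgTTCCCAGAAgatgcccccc
The X2 core alone was present in 5 of the 8 windows (20.8% of all windows), the Y box in 7 (37.4%) and the IRF core, which overlaps both ISRE matches, in 4 (23.9%). The 4 with an IRF core were H2-K1, H2-D1, H2-T23 and B2m. In H2-K1 and H2-D1 it lay on the reverse strand, downstream of the κB palindrome, and only the stricter ISRE letters were not matched. Tap1 and Psmb9 start on opposite strands, with GENCODE starts at 34187553 and 34187764 on chromosome 17, and their windows overlap, so that the X2 core within chr17:34187458-34187486 and the Y box within chr17:34187322-34187350 were each 1 match read from both sides and are counted for both genes. The RefSeq starts of H2-D1, H2-T23, Tapbp, Psmb8 and Psmb9 lay well inside the GENCODE gene, so distances from the start site depend on the annotation. No motif in these windows says whether a factor was bound in these cells.

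**Figure D1:**
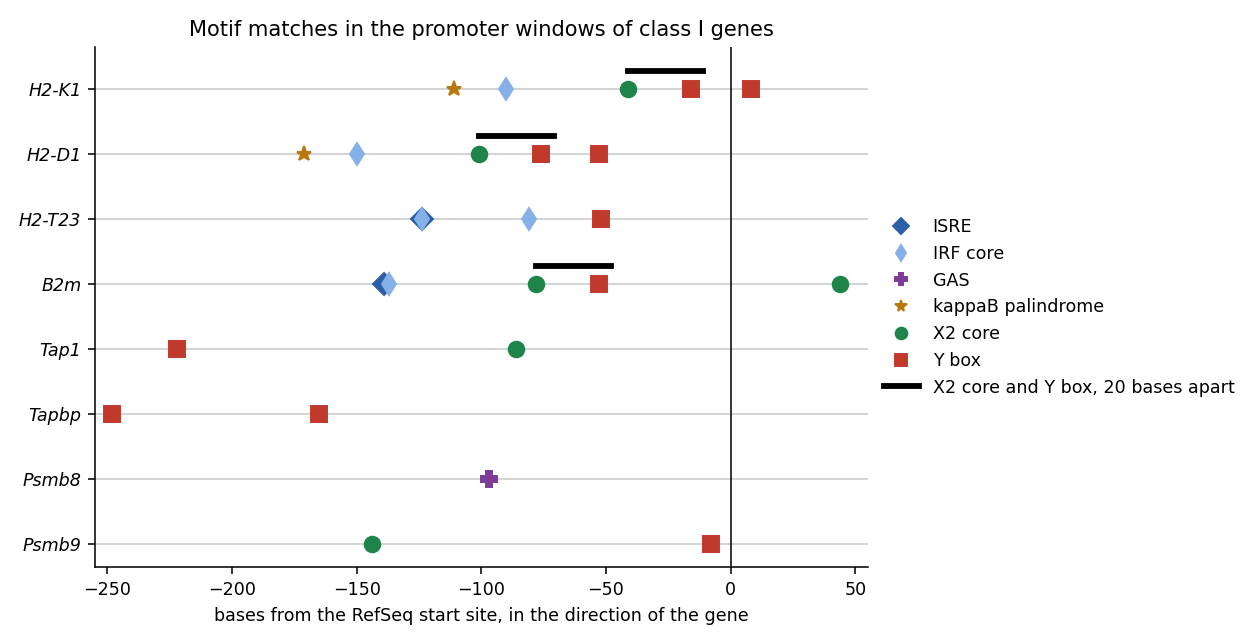
Motif matches in the promoter windows of the 8 class I genes that have one, by the distance in bases from the RefSeq start site in the direction of the gene. Symbols stand for the motifs and the black bar for an X2 core and a Y box 20 bases apart, which is seen in H2-K1, H2-D1 and B2m.

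In KO Treg cells, 6 of the 10 class I genes were called higher and 0 lower, against 11.6% of all genes tested called higher and 7.27% called lower. Those that rose were H2-D1, H2-T23, Tap1, Tap2, Tapbp and Psmb8, by between 1.37-fold (Tapbp) and 2.0-fold (Psmb8). H2-K1, B2m, Psmb9 and Nlrc5 were not called. The log2 fold change was above 0 for all 10, with a median of 0.47, against a median of 0.016 over all genes tested. For 9 of the 10, all except Psmb9, the KO libraries lay above all WT libraries, and the same held for 22.2% of all genes tested. Among the 1860 genes tested with a mean level at least that of Psmb9, the lowest of the members, 12% were called higher. Without WT replicate 2 only Tap2 and Psmb8 were called, with 4.18% of all genes tested called higher. Without WT replicate 3 only H2-D1, Tap2 and Psmb8 were called, with 4.81% of all genes.

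**Figure D2:**
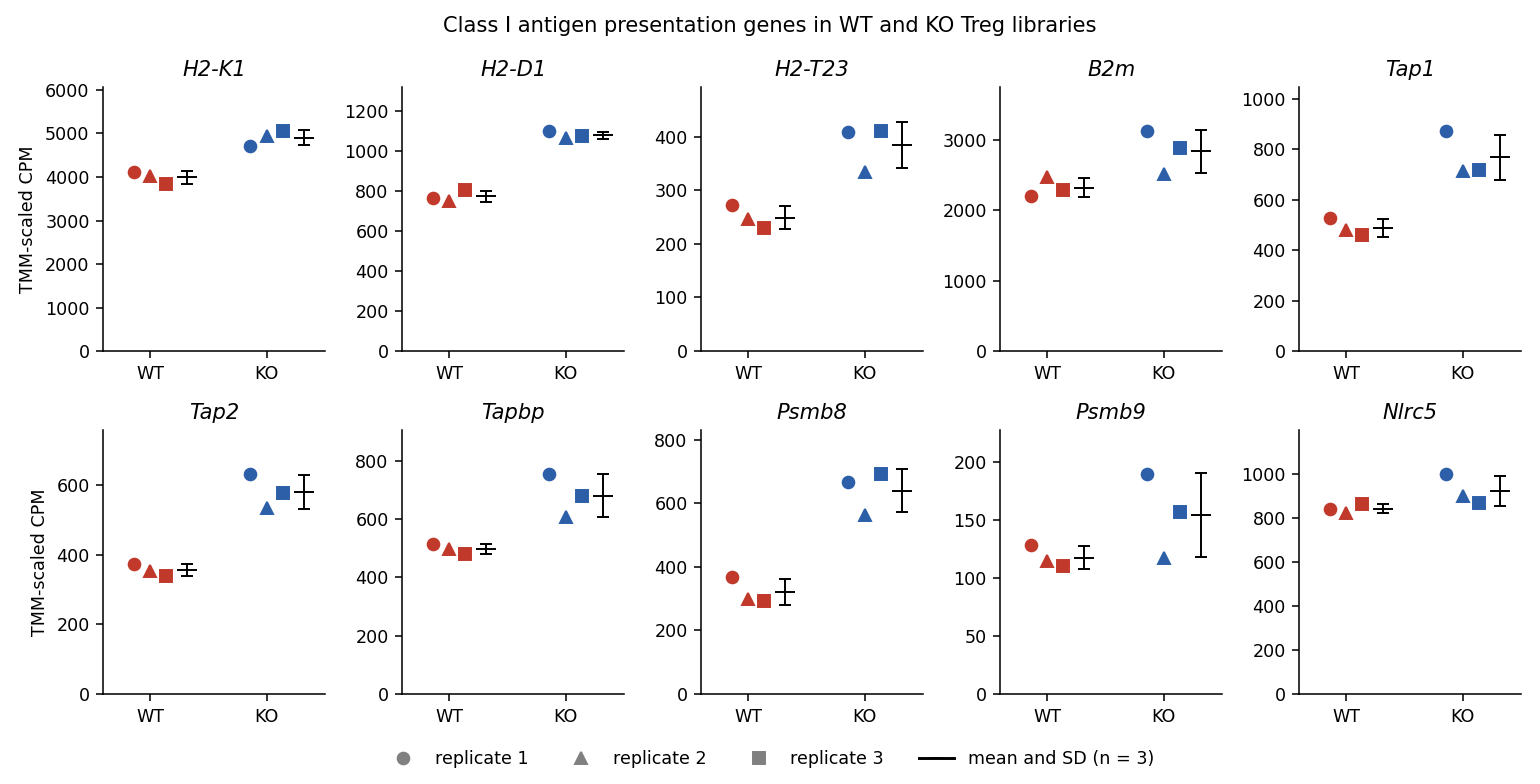
TMM-scaled CPM of each class I gene in the 3 WT (red) and 3 KO (blue) libraries on linear axes that start at 0, with symbols for the replicates and bars for the mean and SD (n = 3). The KO libraries sit above the WT libraries in every panel except that of Psmb9, where KO replicate 2, at 117.4 CPM, falls among the WT libraries.

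Among the heavy chains, H2-D1 and H2-T23 rose and H2-K1 was not called. H2-D1, a classical heavy chain that presents peptides to CD8 T cells, had 766.7, 751.2 and 804.5 CPM in WT replicates 1, 2 and 3 and 1100.6, 1066.9 and 1074.7 CPM in KO replicates 1, 2 and 3. The 3 KO libraries were close to each other and all were above the highest WT library. The means of 774 ± 27.4 and 1081 ± 17.7 CPM (SD, n = 3) gave a log2 fold change of 0.48 (SE 0.08, 1.40-fold, 95% interval 1.22 to 1.60, FDR = 0.0104). The call of H2-D1 was lost without WT replicate 1 (FDR = 0.0532) and without WT replicate 2 (FDR = 0.0668), while its log2 fold change stayed between 0.45 and 0.51. H2-D1 is annotated at chr17:35262730-35267499, and 13.7% of the 51-base windows of its longest coding transcript, the length of a read, also occur in another gene.

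H2-T23 encodes Qa-1, a nonclassical heavy chain that binds the CD94/NKG2 receptors of natural killer and CD8 T cells. It had 272.5, 246.1 and 228.9 CPM in the WT libraries and 408.4, 334.4 and 410.1 CPM in the KO libraries. KO replicates 1 and 3 were alike and KO replicate 2 was lower, although still above the highest WT library. The means of 249 ± 22 and 384 ± 43.2 CPM (SD, n = 3) gave a log2 fold change of 0.63 (SE 0.12, 1.54-fold, 95% interval 1.28 to 1.86, FDR = 0.0125). Without WT replicate 2 or 3 the FDR was 0.0661 or 0.0611. The gene lies at chr17:36029773-36032855 and shares 29% of its windows with other genes, the largest share of the members, so that its reads are the least certain.

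H2-K1, the other classical heavy chain, was the member with the most counts, from 0.389% to 0.498% of a library. It had 4124, 4013 and 3829 CPM in the WT libraries and 4712, 4940 and 5052 CPM in the KO libraries. The groups did not overlap, and KO replicate 1 was the lowest of the KO libraries. The means of 3989 ± 149 and 4901 ± 173 CPM (SD, n = 3) gave a log2 fold change of 0.30 (SE 0.10, 1.23-fold, 95% interval 1.04 to 1.45) with an FDR of 0.0827 in the QLF test. DESeq2 gave an FDR of 0.00228 for H2-K1, so that whether it passes depends on the tool. H2-K1 lies at chr17:33996017-34000347 and shares 8.22% of its windows with other genes, mainly H2-D1.

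B2m, at chr2:122147686-122153083, encodes the light chain that heavy chains need to reach the surface. It had 2211, 2479 and 2288 CPM in the WT libraries and 3127, 2515 and 2883 CPM in the KO libraries. KO replicate 2 lay just above WT replicate 2, so that the groups were separate by a narrow gap. The means of 2326 ± 138 and 2842 ± 308 CPM (SD, n = 3) gave a log2 fold change of 0.29 (SE 0.12, 1.22-fold, 95% interval 1.01 to 1.48) and an FDR of 0.131. B2m shares none of its windows with another gene.

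All 3 genes of peptide transport and loading rose. Tap2 rose from 374.0, 354.8 and 339.6 CPM in WT replicates 1, 2 and 3 to 631.3, 533.6 and 576.7 CPM in KO replicates 1, 2 and 3. The lowest KO library was well above the highest WT library. The means were 356 ± 17.2 and 581 ± 49.0 CPM (SD, n = 3), a log2 fold change of 0.71 (SE 0.10, 1.63-fold, 95% interval 1.39 to 1.91, FDR = 0.00457). Tap2 was called in all 6 fits that left out 1 library, with a log2 fold change between 0.62 and 0.77.

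Its partner Tap1 had 529.4, 479.5 and 458.6 CPM in the WT libraries and 871.7, 714.9 and 716.3 CPM in the KO libraries. KO replicate 1 was the highest, and the other two KO libraries were nearly equal. The means of 489 ± 36.4 and 768 ± 90.1 CPM (SD, n = 3) gave a log2 fold change of 0.65 (SE 0.12, 1.57-fold, 95% interval 1.30 to 1.89, FDR = 0.0106). Without WT replicate 2 or 3 the FDR was 0.0615 or 0.0572. The ratio of Tap1 to Tap2 counts was 1.42, 1.35 and 1.35 in the WT libraries and 1.38, 1.34 and 1.24 in the KO libraries. The groups overlapped in this ratio, with a log2 difference of -0.06 (SE 0.05, exact two-sided permutation test p = 0.4). Tap1 lies at chr17:34187553-34197225 and Tap2 at chr17:34203527-34216321.

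Tapbp, at chr17:33915899-33929292, had 515.4, 496.1 and 481.4 CPM in the WT libraries and 753.4, 608.1 and 679.9 CPM in the KO libraries. The groups did not overlap, and the KO libraries spread more widely than the WT libraries. The means of 498 ± 17.1 and 680 ± 72.7 CPM (SD, n = 3) gave a log2 fold change of 0.45 (SE 0.10, 1.37-fold, 95% interval 1.15 to 1.62, FDR = 0.0256). Its call was the least stable of the 6. It was kept in 1 of 6 fits that left out a library, that without KO replicate 2, and the FDR was between 0.0514 and 0.107 in the other 5. It was also lost with library totals in place of TMM (FDR = 0.0556). The annotated exons of Tapbp share 904 bases with the antisense gene Gm19412 and 149 bases with Zbtb22 on the same strand, and the counts were made without regard to strand, so reads from Tapbp and Gm19412 cannot be told apart there.

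Of the immunoproteasome subunits, Psmb8 rose the most of all members and Psmb9 was not called. These subunits take the place of constitutive catalytic subunits and change which peptides are cut. Psmb8, at chr17:34197721-34201454, had 366.9, 299.1 and 293.1 CPM in WT replicates 1, 2 and 3 and 665.8, 561.8 and 691.1 CPM in KO replicates 1, 2 and 3. The lowest KO library, replicate 2, was still well above the highest WT library. The means of 320 ± 41.0 and 640 ± 68.5 CPM (SD, n = 3) gave a log2 fold change of 1.0 (SE 0.13, 2.0-fold, 95% interval 1.62 to 2.47, FDR = 0.00369). Psmb8 was called in all 6 fits that left out a library, between 0.93 and 1.09. Its exons share 498 bases with the antisense gene Gm20496.

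Psmb9, at chr17:34181987-34187764, had 128.7, 114.5 and 110.3 CPM in the WT libraries and 189.8, 117.4 and 157.4 CPM in the KO libraries. KO replicate 2 lay within the WT range and KO replicate 1 was the highest, so that the groups overlapped. The means of 118 ± 9.67 and 155 ± 36.3 CPM (SD, n = 3) gave a log2 fold change of 0.40 (SE 0.17, 1.32-fold, 95% interval 0.997 to 1.74, FDR = 0.147). Psmb9 was called without KO replicate 2 (0.57, FDR = 0.0214) and fell to a log2 fold change of 0.21 without KO replicate 1. It shares 212 exon bases with Tap1 on the opposite strand, which are 12.4% of its windows, so unstranded reads there could belong to either gene.

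The ratio of Psmb8 to Psmb9 counts was added after these values had been seen. It was 2.85, 2.61 and 2.66 in the WT libraries and 3.51, 4.78 and 4.39 in the KO libraries, without overlap. The log2 difference was 0.63 (SE 0.14, 1.55-fold), with an exact two-sided permutation test p = 0.1, the smallest that 3 libraries against 3 can give. It lay between 0.54 and 0.76 when each library was left out in turn.

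Nlrc5, at chr8:94434356-94527272, had the smallest fold change of the members. It had 840.0, 822.5 and 864.6 CPM in the WT libraries and 999.4, 901.5 and 869.1 CPM in the KO libraries. KO replicate 3 lay next to WT replicate 3, and KO replicate 1 stood farthest above the WT libraries. The means of 842 ± 21.2 and 923 ± 67.9 CPM (SD, n = 3) gave a log2 fold change of 0.13 (SE 0.09, 1.10-fold, 95% interval 0.941 to 1.28, FDR = 0.36). The interval leaves out a rise of Nlrc5 as large as the 1.37-fold of Tapbp. Without KO replicate 1 the log2 fold change of Nlrc5 was 0.06.

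**Figure D3:**
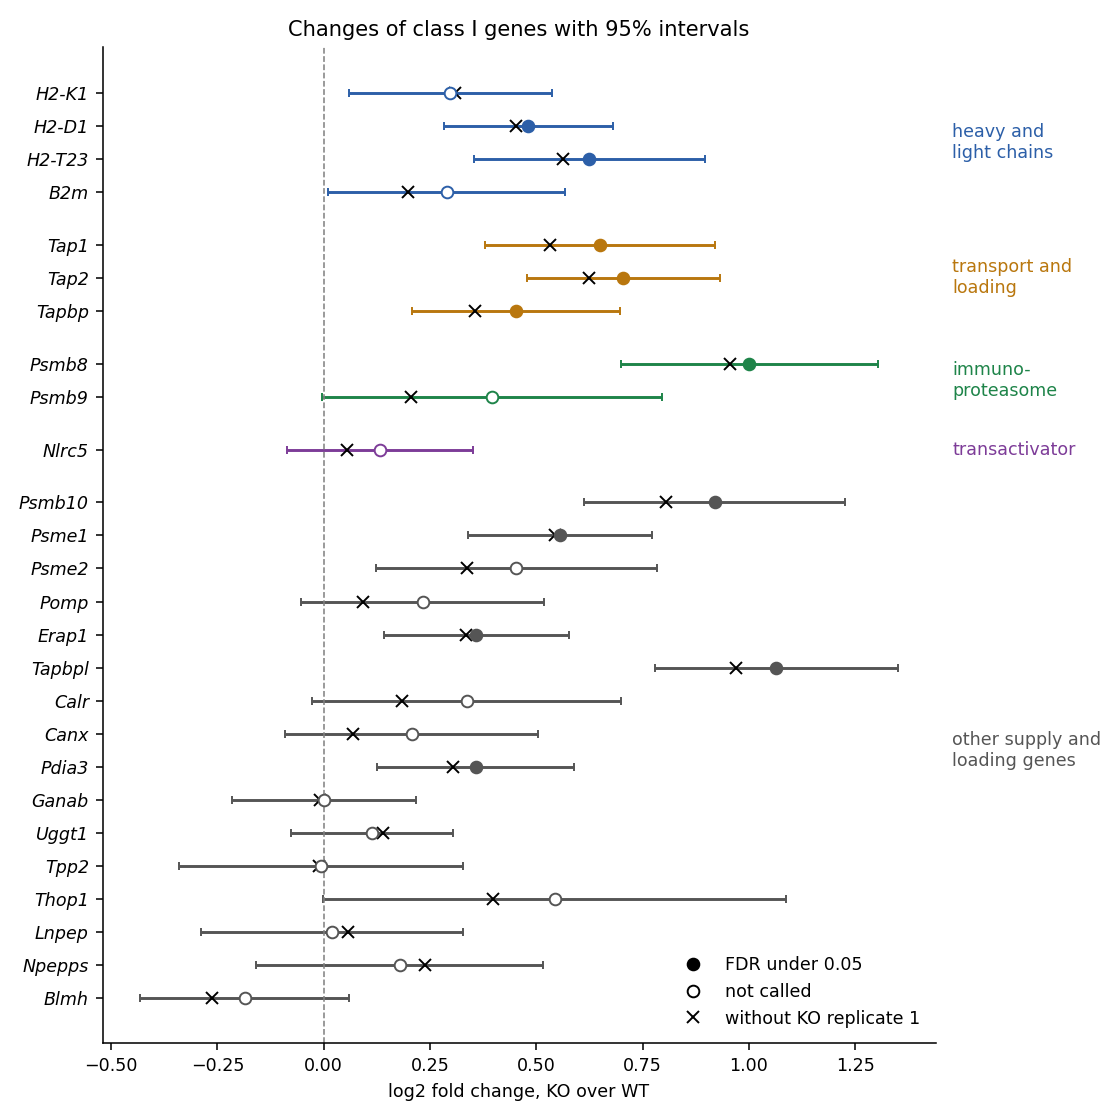
Log2 fold changes of KO over WT (points) with 95% intervals (bars) for the 10 class I genes, coloured by role, and for 16 other genes of peptide supply and loading (grey), with filled points for an FDR under 0.05 and crosses for the value without KO replicate 1. Psmb8, at 1.0, lies farthest right among the 10, and the interval of Nlrc5 spans 0.

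The members differed widely in level, and levels between genes were compared per kb of exon. In WT libraries B2m had 2705 CPM per kb and was followed by H2-K1 with 1358, H2-D1 with 300.2 and Tapbp with 137, each apart from its neighbours in the ranges of the 3 libraries. Nlrc5, Psmb8, Tap2, Tap1 and H2-T23 came next at between 86.3 and 99.2 CPM per kb, and neighbours in this stretch overlapped. Psmb9 was the lowest, at 32.2 CPM per kb. Dividing by the longest coding transcript instead kept B2m, H2-K1 and H2-D1 in the first places and Psmb9 in the last, but brought H2-K1 to 2464 CPM per kb and placed Psmb8, at 196, before Tapbp, at 172. Together the 10 genes made up 0.986% to 1.06% of the counts of a WT library and 1.17% to 1.30% of those of a KO library.

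Ratios within a library, which do not depend on the scaling between libraries, were compared for 8 pairs fixed by role. The exact two-sided permutation test of 3 libraries against 3 cannot give a p under 0.1, and no pair could therefore pass 0.05. For the 4 pairs whose KO libraries lay above their WT libraries the p was 0.1, and 0.2 after Benjamini-Hochberg adjustment over the 8. The first was Psmb8 over Psmb5, its constitutive counterpart, with 32.4, 25.8 and 26.6 in the WT libraries and 40.9, 46.4 and 48.1 in the KO libraries, a log2 difference of 0.68 (SE 0.12, 1.60-fold). Psmb5 had at most 16.3 CPM and shares 56.2% of its windows with other genes, mainly Gm3375, so the level of this ratio is uncertain. H2-D1 over B2m differed by 0.20 (SE 0.10, 1.15-fold) and H2-T23 over B2m by 0.34 (SE 0.11, 1.26-fold), and in both cases the lowest KO library was close to the highest WT library. The fourth was Psmb10, the other immunoproteasome subunit, over Psmb7, with 1.92, 1.92 and 2.06 in the WT libraries and 3.14, 2.36 and 2.89 in the KO libraries, a log2 difference of 0.50 (SE 0.13, 1.41-fold). Psmb7 shares 27.9% of its windows with Nek6 on the opposite strand, so the level of the Psmb10 to Psmb7 ratio is also uncertain. Psmb9 over its counterpart Psmb6 was 1.80, 1.85 and 1.84 in WT and 2.16, 1.47 and 1.75 in KO, with a log2 difference of -0.05 (SE 0.16, exact permutation p = 0.7), and KO replicates lay on both sides of the WT libraries. H2-K1 over B2m differed by 0.01 (SE 0.13, exact permutation p = 1) and Nlrc5 over H2-K1 by -0.17 (SE 0.10, exact permutation p = 0.3).

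**Figure D4:**
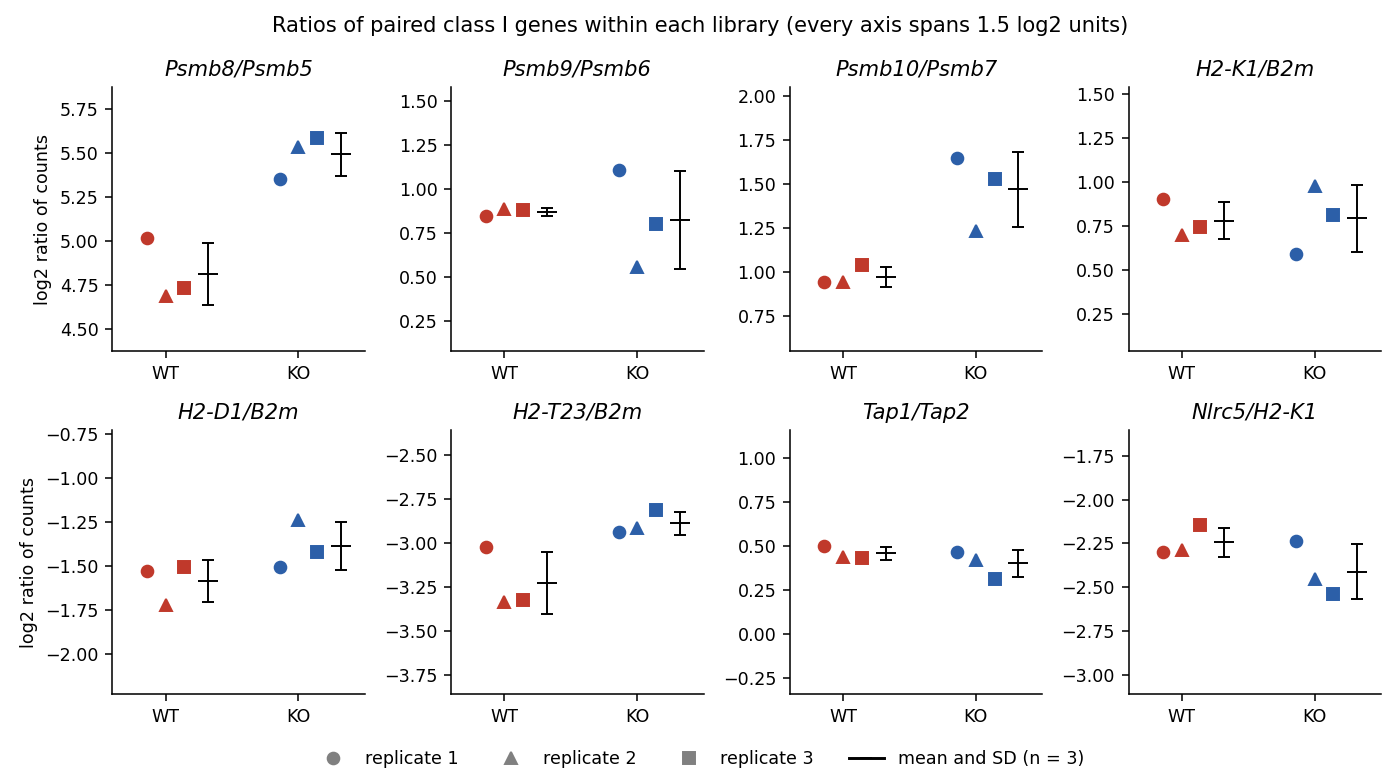
Log2 ratios of counts of 8 pairs of genes within each WT (red) and KO (blue) library, with symbols for the replicates and bars for the mean and SD (n = 3); every axis spans 1.5 log2 units but starts at its own value. The KO libraries lie above the WT libraries for Psmb8/Psmb5, Psmb10/Psmb7, H2-D1/B2m and H2-T23/B2m and overlap them for the other 4 pairs.

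Within the KO group the members were highest in KO replicate 1 for 7 genes and in KO replicate 3 for 3 genes, and within the WT group WT replicate 3 held the lowest value for 7. KO replicate 2 was the lowest KO library for 8 of the 10, all except H2-K1 and Nlrc5. In addition, KO replicate 1 contained RNA from markers of other cell types. The 10 monocyte and macrophage markers, all of which were highest there, summed to 2406 CPM in KO replicate 1, against 7.70 to 11.3 CPM in the WT libraries and 9.10 and 43.0 CPM in the other KO libraries. The 9 neutrophil markers in the matrix summed to 879 CPM in KO replicate 1, against at most 1.29 CPM in WT and 40.9 CPM in the other KO libraries. Of these 9 markers, 3 were at 0 in all WT libraries. Most of the 40.9 CPM, in KO replicate 3, came from Mpo (32.2 CPM) and Elane (4.31 CPM), and no other neutrophil marker exceeded 1.23 CPM there. Mpo was higher in KO replicate 3 than in KO replicate 1 (16.8 CPM). The 7 B cell markers summed to 219 CPM there and to at most 21.9 CPM elsewhere, and the 7 dendritic cell markers to 155 CPM there and at most 6.71 CPM elsewhere. The 7 CD8 and natural killer cell markers summed to 26.6 to 29.8 CPM in WT, 105 CPM in KO replicate 1 and 60.6 and 51.3 CPM in the others. Of these 7, Eomes, a transcription factor of CD8 and natural killer cells, rose from 6.34, 4.35 and 6.69 CPM in WT to 39.1, 42.0 and 29.8 CPM in KO and made up most of the sum in KO replicates 2 and 3. Klrb1c was called lower, from 3.94, 3.85 and 2.38 CPM to 1.39, 0.303 and 0.821 CPM, and Cd8b1 and Prf1 in KO replicates 2 and 3 were near or within their WT ranges. The 6 erythroid markers reached 12.0 CPM in KO replicate 1, of which Alas2 made up 8.71 CPM. The other markers included 4 globin genes, Hba-a1, Hba-a2, Hbb-bs and Hbb-bt, with 0 counts in all 6 libraries. Nearly all nucleated cells express class I genes, and in bulk RNA a change in the number of cells of a type and a change in the RNA per cell cannot be told apart. Without KO replicate 1 the log2 fold changes of the 10 members were between 0.06 and 0.95, 5 of the 6 calls were kept (Tapbp had an FDR of 0.0514), and 9.69% of all genes tested were called higher. The log2 fold change was lower without KO replicate 1 for every member except H2-K1. It went from 0.40 to 0.21 for Psmb9, from 0.29 to 0.20 for B2m, from 0.65 to 0.53 for Tap1 and from 1.0 to 0.95 for Psmb8. H2-K1, the member with the most counts, was lower in KO replicate 1 than in the other KO libraries. Its log2 fold change was 0.30 with all libraries and 0.31 without KO replicate 1.

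Of 16 other genes of peptide supply and loading, 5 were called higher and 0 lower, with a median log2 fold change of 0.28. Over all genes tested, 11.6% were called higher and 7.27% lower. Tapbpl, which encodes the tapasin-related peptide editor TAPBPR, rose the most. It had 106.5, 102.6 and 102.2 CPM in the WT libraries and 239.6, 178.8 and 232.3 CPM in the KO libraries, a log2 fold change of 1.06 (SE 0.12, FDR = 0.00253). Psmb10 rose by 0.92 (SE 0.13, FDR = 0.00497), so that 2 of the 3 interferon-inducible catalytic subunits were called. Psme1, a subunit of the PA28 activator of the proteasome, rose by 0.56, and the trimming peptidase Erap1 and the disulfide isomerase Pdia3 of the loading complex each rose by 0.36. The chaperones Calr and Canx, with log2 fold changes of 0.34 and 0.21, and the second PA28 subunit Psme2, with 0.45, were not called. The peptidases Tpp2, Lnpep, Npepps and Blmh had log2 fold changes between -0.19 and 0.18 and the cytosolic peptidase Thop1 of 0.54 (SE 0.23, FDR = 0.144), and none of these was called. The count of 5 became 3, 2 and 2 without WT replicates 1, 2 and 3, and 3, 9 and 3 without KO replicates 1, 2 and 3. In the same order, 5.78%, 4.18%, 4.81%, 9.69%, 12.3% and 7.62% of all genes tested were called higher in these fits. These shares also stand beside the counts without a library that are given for the lists below.

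Of the 14 subunits of the constitutive 20S proteasome, which every cell uses to degrade proteins, 8 were called higher and 0 lower, with a median of 0.40. The shares over all genes tested were 11.6% higher and 7.27% lower. Psmb2 (0.76), Psma2 (0.75), Psma6 (0.57) and Psma1 (0.51) rose the most. The catalytic subunits Psmb6 and Psmb7 each rose by 0.41, while Psmb5, with 11.3, 11.6 and 11 CPM in WT and 16.3, 12.1 and 14.4 CPM in KO, was not called (0.33, FDR = 0.173). The fold change of Psmb8 was above that of each of the 14, and that of Psmb9, at 0.40, was at their median. Psmb1 had a log2 fold change of -0.02 and Psma3 of 0.03, and neither was called. The count of 8 became 6, 3 and 3 without WT replicates 1, 2 and 3, and 6, 10 and 4 without KO replicates 1, 2 and 3.

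**Figure D5:**
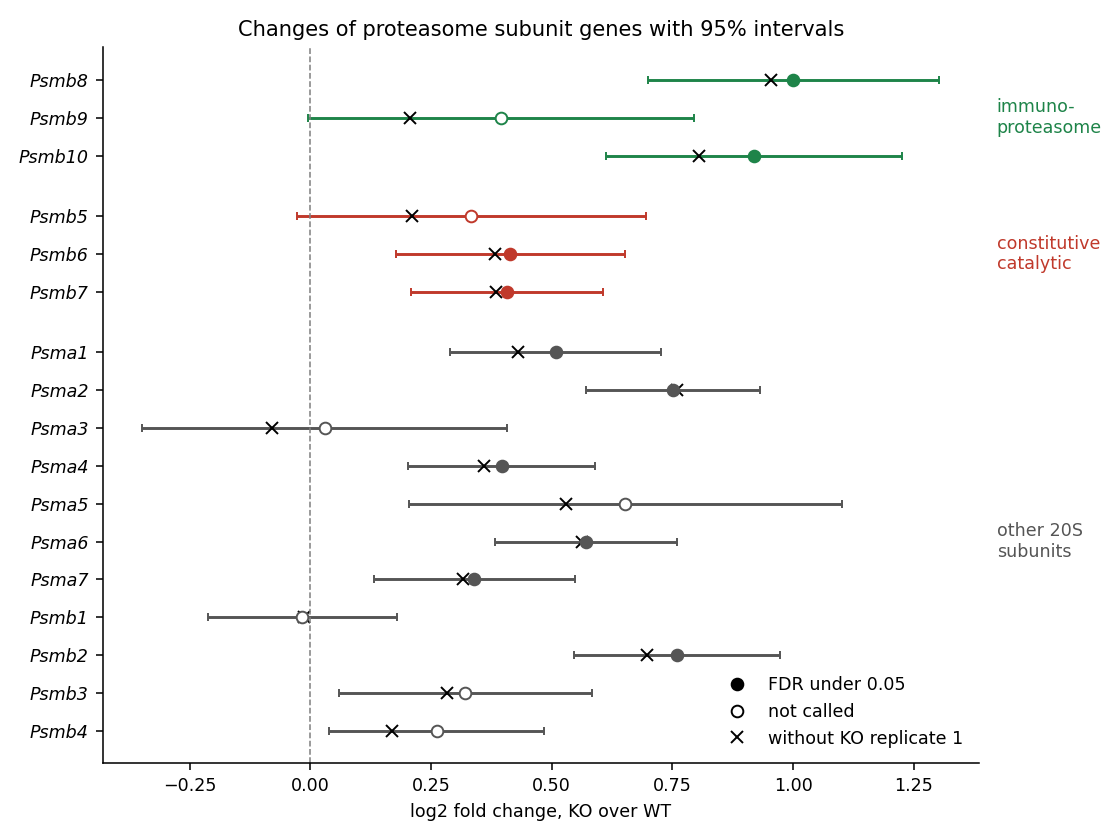
Log2 fold changes of KO over WT (points) with 95% intervals (bars) for the 3 immunoproteasome catalytic subunits (green), their constitutive counterparts (red) and the other 20S subunits (grey), with filled points for an FDR under 0.05 and crosses for the value without KO replicate 1. Psmb8 and Psmb10, at 1.0 and 0.92, lie above all the constitutive subunits, and Psmb9, at 0.40, lies among them.

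Most class I heavy chains outside the 10 genes were low or were not called. Of 23 in the matrix, 12 were tested, 1 was called higher and 0 lower, and their median log2 fold change was 0.14. Among all genes tested, 11.6% were called higher and 7.27% lower. The 1 that rose was H2-Q4, with 645.5, 623.4 and 717.4 CPM in WT and 897.0, 1232 and 862.0 CPM in KO (0.59, SE 0.15, FDR = 0.0375), and its call was lost without any 1 of the 3 WT libraries. H2-Q4 is a nonclassical heavy chain gene of the Q region and shares 38.2% of its windows with other genes. H2-K2 (-0.11), H2-T10 (-0.12) and H2-T24 (-0.04) overlapped between the groups. H2-M3, which presents formylated peptides, and Mr1, which presents vitamin metabolites, had log2 fold changes of 0.29 and 0.36 without overlap and were not called. H2-Q6, H2-Q9 and H2-T9 had 0 counts in all 6 libraries, which cannot be read as silence where copies share sequence, as H2-Q6 does over 34.3% of its windows. H2-M2 had 12.4 CPM in KO replicate 1 and 0 counts elsewhere, and Hfe and Fcgrt had 29.7 and 51 CPM in KO replicate 1 and at most 1.67 CPM elsewhere. The count of 1 became 2 without KO replicate 1 and 2 without KO replicate 2.

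Of 21 genes of the interferon pathway and of the complexes that act on class I promoters, 4 were called higher and 0 lower, with a median of 0.034. This stands beside 11.6% of all genes tested called higher and 7.27% called lower. Ifngr1, a chain of the IFNγ receptor, had 189.6, 189.9 and 208.8 CPM in WT and 482.0, 338.9 and 292.0 CPM in KO (0.92, SE 0.18, FDR = 0.0152). The KO libraries lay above all WT libraries, and KO replicate 1 was the highest. The other receptor chain Ifngr2 rose by 0.54 and the type I receptor chain Ifnar1 by 0.39. Irf1, which binds the ISRE of class I genes, had a log2 fold change of 0.51 without overlap and an FDR of 0.051, just outside the threshold. Its KO libraries had 693.7, 509.3 and 526.4 CPM in replicates 1, 2 and 3, and its log2 fold change was 0.34 without KO replicate 1. Of the promoter complexes, Rfx5, the DNA-binding RFX subunit through which Nlrc5 acts, rose from 89.6, 88.9 and 85.6 CPM to 119.7, 116.0 and 120.2 CPM (0.43, SE 0.07, FDR = 0.00902). Its partners Rfxap (-0.15) and Rfxank (-0.22) and the NF-Y subunits Nfya (-0.43), Nfyb (-0.27) and Nfyc (0.18) were not called. Of these, Rfxank, Nfya and Nfyb lay lower and Nfyc higher in KO without overlap, while Rfxap overlapped. Ifng itself had 5.85, 13.0 and 24.6 CPM in WT and 15.0, 5.68 and 4.38 CPM in KO, overlapped and was not called (-0.78, SE 0.61). The count of 4 became 1, 0 and 1 without WT replicates 1, 2 and 3, and 3, 5 and 2 without KO replicates 1, 2 and 3. Without WT replicates 1, 2 and 3 the share of all genes called higher was also lower, at 5.78%, 4.18% and 4.81%.

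Class II genes, which mark B cells and other professional antigen-presenting cells, were read beside the class I genes. Of 9, 7 were called higher and 0 lower, with a median of 5.11, against 11.6% higher and 7.27% lower of all genes tested. They summed to 157, 132 and 153 CPM in the WT libraries, 4657 CPM in KO replicate 1, and 368 and 467 CPM in KO replicates 2 and 3. H2-Aa, a class II alpha chain, had at most 0.677 CPM in WT and 841, 25.5 and 28.9 CPM in KO replicates 1, 2 and 3, and so was present in all 3 KO libraries but at very unequal levels. Ciita, the class II counterpart of Nlrc5, had at most 1.16 CPM in WT and 98.8, 3.71 and 4.59 CPM in KO. H2-Ob, a chain of the class II modulator H2-O, went the other way, with 62.5, 58.5 and 59.6 CPM in WT and 45.3, 7.27 and 6.36 CPM in KO. Its groups did not overlap, and it was not called with all 6 libraries (-1.60, SE 0.70, FDR = 0.150) but was called lower without KO replicate 1 (-3.16). The count of 7 higher became 1 without any 1 of the WT libraries, and 3, 4 and 3 without KO replicates 1, 2 and 3. In the fits without a KO library H2-Aa, H2-Ab1, H2-Eb1 and H2-DMb1 failed the CPM filter. They were not tested there, so these lower counts are in part an effect of the filter. The part of other cell types in the class I rise of KO replicates 2 and 3 was not tested.

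Of the 10 class I genes, 8 lie on chromosome 17 in the MHC, with B2m on chromosome 2 and Nlrc5 on chromosome 8. From the first to the last of the 8, over chr17:33915899-36032855, 92 other genes were tested, of which 13 (14.1%) were called higher and 2 (2.17%) lower, with a median log2 fold change of 0.063. On the rest of chromosome 17 there were 502, of which 51 (10.2%) were called higher and 42 (8.37%) lower, with a median of -0.041. The 13 included the class II genes H2-DMa, H2-DMb1, H2-DMb2, H2-Ab1, H2-Aa and H2-Eb1 and the class I heavy chain gene H2-Q4. All of these except H2-DMb2 are in the lists described above. The share of the region without these genes was not computed.

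The 5 tested genes whose levels followed the mean of the 10 members most closely over the 6 libraries, by Pearson correlation of log2 CPM, were Npc2 and Clpb (0.999 each) and Gm4951, Myo1c and 2900026A02Rik (0.998 each). They were picked as the best of all genes tested, and the 6 points share the split into WT and KO. Npc2, a lysosomal cholesterol carrier, had 233.3, 223.2 and 221.5 CPM in WT and 334.1, 285.6 and 303.5 CPM in KO. In all 5, KO replicate 1 was the highest library and KO replicate 2 the lowest of the KO group, the order that H2-D1, B2m, Tap1, Tap2, Tapbp and Psmb9 also had.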

How the data were processed

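CD4+YFP+ Treg cells of 3 WT and 3 KO mice were profiled by RNA-seq. Per the study's methods and the labels, the authors mapped the 51-base single-end reads to mm10 with HISAT and counted them on genes with featureCounts without strand; the program versions and the gene annotation are not given in the sources used here. The authors deposited raw counts per gene, whole numbers without normalization, and no deposited sample column was left out. The TruSeq kit used does not mark strand. Groups were taken from the labels.

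Testing used edgeR 4.0.16 (R 4.3.3) on all genes whose CPM exceeded 1 in 3 or more libraries, with TMM factors, the quasi-likelihood F test and Benjamini-Hochberg adjustment at 0.05. Intervals are 95% intervals of the model, and SDs cover 3 mice per group. The fit was tested on simulated counts as a check of the code. These gave every gene the same dispersion and held no library like KO replicate 1, so they were simpler than the data. Ratios of counts used exact two-sided permutation tests in Python 3.11.15. Genes were placed with GENCODE vM21 on GRCm38, the build that mm10 names, and exons, shared 51-base windows and 3′ UTRs came from it. Promoters and miRNAs came from RefSeq (GRCm38.p6).

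The members, the gene lists and the marker lists were chosen with earlier results of these data known. Of the regulator list, 1 gene is not reported here. Named genes were the members, list genes past the threshold with the largest fold changes (up to 4 per list and direction), counterparts of members, genes of these lists added for contrast after their values were seen, and the 5 genes most like the members. The X2 to Y spacing and the ratio of Psmb8 to Psmb9 were chosen after seeing the data. Alternatives were RLE factors, library totals, DESeq2 1.42.0, the likelihood ratio and exact tests, other filters, robust estimation, an FDR of 0.01, a replicate block and leaving out each library.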

Additional observations from a re-analysis of the deposited data

How the results depend on the processing

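The log2 fold changes of the 10 members were recomputed under 16 alternatives each, 160 values in all, and none changed sign. The FDR of 0.01, robust estimation and the likelihood ratio and exact tests change the test and hardly the fold change. Their signs were therefore fixed in advance. In 142 of the 160 the side of the threshold was the same, in 16 a call was lost and in 2 one was gained (H2-K1 with DESeq2, Psmb9 without KO replicate 2). At an FDR of 0.01, 2 members, 490 higher and 196 lower genes were called, and 3 genes of peptide supply, 0 other heavy chains, 1 regulator, 3 genes of the 20S proteasome and 1 class II gene. Library totals gave 3 peptide supply genes, 2 regulators higher and 1 lower, and 5 of the 20S proteasome, while no CPM filter gave 3, 2 regulators and 0 other heavy chains. DESeq2 gave 3 other heavy chains and 3 class II genes, the likelihood ratio and exact tests 2 other heavy chains each, and robust estimation 1 class II gene. Leaving out each library gave 2 to 7 members, 483 to 1403 higher and 208 to 937 lower genes. It gave 2 to 9 peptide supply genes, 0 to 2 other heavy chains and 3 to 10 genes of the 20S proteasome. Regulators numbered 0 to 5 higher and 0 to 1 lower, and class II genes 1 to 4 higher and 0 to 1 lower. Without a KO library, H2-Aa, H2-Ab1, H2-Eb1 and H2-DMb1 failed the CPM filter and were not tested. The ratio of Psmb9 to Psmb6 then ranged from -0.19 to 0.086, changing sign without KO replicate 2, and that of H2-K1 to B2m from -0.079 to 0.11, changing sign without WT replicate 2 (-0.030), WT replicate 3 (-0.0057) or KO replicate 2. The cause was not tested.

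Same-numbered libraries did not deviate together (correlations of 0.073, -0.012 and -0.19), and the main fit did not treat the numbers as pairs. The labels do not say whether mice were paired, and these correlations cannot exclude it. A replicate block left 6 members called, with 1061 higher and 545 lower genes, 3 peptide supply genes, 0 other heavy chains, 4 genes of the 20S proteasome and 1 class II gene lower. For the ratios, the exact permutation within replicate numbers cannot go under p = 0.25.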
